A study of Mus musculus with 6 samples.

Results

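The interleukin-1 family comprises cytokines that start and restrain inflammation, with their receptors, decoys and antagonists. The genes followed here, 10 in number, were taken by gene symbol from a list of family members: the ligands Il1a, Il1b, Il18 and Il33, the antagonists Il1rn and Il18bp, and the receptor chains Il1r1, Il1r2, Il1rap and Il1rl1. All 10 were found among the 21399 genes listed. IL-1α and IL-1β signal through the receptor IL-1R1 together with the shared accessory chain IL-1RAP. The receptor antagonist encoded by Il1rn occupies IL-1R1 without signalling, and the decoy receptor encoded by Il1r2 binds IL-1 without passing on a signal. IL-1β and IL-18 are made as inactive precursors that caspase-1 cuts inside inflammasomes, IL-18 is neutralised by the binding protein encoded by Il18bp, and IL-33 acts through ST2, the product of Il1rl1. In the ischaemic brain this family is known as an early product of activated microglia and of incoming myeloid cells.

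RNA sequencing had been carried out on 3 mouse libraries labelled WT and 3 labelled KO. In both groups, primary microglia had been exposed to oxygen and glucose deprivation, a culture model of ischaemia, followed by reoxygenation, during which peritoneal macrophages from CD45.1 mice were added. The microglia came from CD45.2 mice, either wild type or knockout. Which gene was deleted is not in the labels (the series title concerns PPARα, a lipid-sensing nuclear receptor), nor are a strain beyond the CD45 allele, an age, a number of animals or a length of culture. Whether a group holds independent cultures or animals is not stated, and the p-values therefore reflect library-to-library spread that may be technical. The labels name microglia and peritoneal macrophages together as the source, and the design text gives the sorted microglia the CD45.1 mark of the macrophages.

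Ppara, which encodes PPARα, held 11, 1 and 2 reads in WT replicates 1 to 3 and 13, 23 and 10 reads in KO replicates 1 to 3, at most 0.0588 FPKM. It was thus not lower in the libraries labelled KO, and the tables do not show which part of the gene the reads covered, so WT and KO stand throughout for libraries so labelled. Marker genes were read next. The recovered reads, meaning whole reads worked back from the deposited FPKM (fragments per kilobase of transcript, scaled to library depth), summed to between 33506203 and 37137642 per library. The 10 B cell markers summed to 4707 to 5394 FPKM in WT and 4158 to 4557 FPKM in KO, without overlap. All 10 were lower in KO, as were 6936 of the 10732 genes averaging at least 1 FPKM. Taken singly, 4 of the 10 had KO below WT without overlap and 6 overlapped, where 15.2% of those genes had KO below WT. Over 13 microglia markers the sum was 99.6 to 126 FPKM, where P2ry12 and Sall1, both defining microglia, peaked at 1.09 and 0.152 FPKM. The 10 core macrophage genes summed to 1431 to 3934 FPKM in the WT libraries and 4852 to 11258 FPKM in the KO libraries, without overlap. Their mean log2(FPKM + 1), called the core macrophage score below, averaged 6.26 ± 0.68 (WT) and 7.73 ± 0.50 (KO; SD, n = 3), and WT replicate 2, at 6.99, lay nearest to the KO libraries. The 18 peritoneal macrophage markers summed to 1845 to 6437 FPKM in WT and 7665 to 16027 FPKM in KO, also without overlap. Of the 16 averaging at least 1 FPKM, 15 were higher in KO. For 13 every KO library lay above every WT library, as for 9.75% of all genes at that level. The part of these cells in the family's levels was not tested. In bulk RNA, fewer cells of a type and less RNA per cell cannot be told apart.

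Il1b and Il1rl1 carried the main patterns that follow, the first as the source of most of the family's RNA and the second as the most variable member. The stretches upstream of their start sites are therefore shown, 5′ to 3′ on the strand of the gene, from RefSeq promoter windows on build GRCm38.p6. The Il1b stretch is chr2:129371165-129371389 on the minus strand, and its capitals mark the TATA box. The Il1rl1 stretch is chr1:40429320-40429569 on the plus strand, before the outermost start of this gene in GENCODE, and its capitals mark GATAA.
Il1b: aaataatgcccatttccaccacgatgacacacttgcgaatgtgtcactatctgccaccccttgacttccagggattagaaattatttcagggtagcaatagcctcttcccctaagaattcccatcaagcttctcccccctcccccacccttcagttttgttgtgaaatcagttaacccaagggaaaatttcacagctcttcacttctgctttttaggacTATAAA
Il1rl1: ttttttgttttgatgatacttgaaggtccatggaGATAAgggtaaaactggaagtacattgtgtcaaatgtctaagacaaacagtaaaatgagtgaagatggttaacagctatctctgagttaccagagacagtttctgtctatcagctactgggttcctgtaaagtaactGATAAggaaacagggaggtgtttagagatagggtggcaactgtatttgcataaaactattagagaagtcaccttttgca
The letters TATAAA began 31 bases before the Il1b start and occur, on either strand, in 12.4% of 32851 RefSeq windows of 250 bases. The Il1b stretch holds 225 bases and ends 26 bases before that start, so the bases nearest the start were not searched. The shares given here are for full windows and are not matched to its length. GATAA, the core of the motif bound by GATA factors, began 216 and 79 bases before the Il1rl1 start, and 22.6% of the windows hold it at least once. Of the other motifs searched on both strands, GGAAGT, a core of PU.1 sites, was found once in each stretch (19.7% of windows), TTGCNNAA, a C/EBP-type motif, once in the Il1rl1 stretch and not in that of Il1b (9.56%), and the NF-kB motif in neither (7.25%). No match overlapped another. The motifs were chosen after the values were seen, and a match is only a run of letters.

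Il1b was by far the most abundant member. Its level, which FPKM gives per transcript length, made up 69.2% to 85.8% of the summed level of the 10 genes in each library. Il1b stood at 53.0, 89.4 and 37.9 FPKM in WT replicates 1 to 3 and at 187, 199 and 153 FPKM in KO replicates 1 to 3. Every KO library lay above every WT library, and WT replicate 2 was the highest of the WT group. These values rest on 2488 to 14053 reads, so counting error is small beside the spread between libraries. WT averaged 60.1 ± 26.5 FPKM and KO 179.6 ± 23.4 FPKM (SD, n = 3), 2.99 times as high. On log2(FPKM + 1) the difference was 1.64 (SE 0.28), which limma, fitted over the 10732 genes averaging at least 1 FPKM, did not call at 0.05 (adjusted p = 0.10). In the same test 3 of those genes (0.028%) were called higher in KO and 0 (0.0%) lower. F5, from the peritoneal macrophage markers, was among the 3 (limma adjusted p = 0.0053). Without WT replicate 2 the Il1b difference was 1.97 and passed with a limma adjusted p of 0.0079, in a fit that called 4.79% of all genes higher and 0.354% lower. In mm10 the Il1b gene spans chr2:129364570-129371139 (minus strand), and its exons overlap those of the antisense gene Il1bos, which stood at 0.191 to 0.685 FPKM.

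Il1a, whose product is active without cleavage by caspase-1 and acts as an alarm signal from damaged cells, was far less abundant than Il1b. Il1a stood at 5.19, 6.54 and 2.26 FPKM in the WT libraries and at 19.2, 10.6 and 6.44 FPKM in the KO libraries. KO replicate 1 was the highest, and KO replicate 3 lay just under WT replicate 2, so the groups overlapped. WT averaged 4.66 ± 2.19 FPKM and KO 12.1 ± 6.48 FPKM (SD, n = 3), and the log2 difference of 1.17 (SE 0.41) had a limma adjusted p of 0.23. Il1a is a neighbour of Il1b at chr2:129299610-129309972 (minus strand), and its exons overlap the noncoding gene Gm14023, at 0.285 to 0.569 FPKM.

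Il1rn, the antagonist of IL-1R1, stood close to Il1a. Its level was 6.02, 6.03 and 3.81 FPKM in the WT libraries and 14.3, 11.1 and 7.74 FPKM in the KO libraries. The groups did not overlap, with KO replicate 3 the nearest to WT. WT averaged 5.29 ± 1.28 FPKM and KO 11.04 ± 3.27 FPKM (SD, n = 3), 2.09 times as high, with a log2 difference of 0.92 (SE 0.23) and a limma adjusted p of 0.13. The gene spans chr2:24336853-24351494 (plus strand) and overlaps no other.

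Il1b and Il1rn were the 2 of 10 members whose groups did not overlap, both with KO above WT, where 9.75% of all genes tested had KO above WT and 15.2% had KO below it. Of the 10 members, 6 had a mean of at least 1 FPKM and entered the fit, and 0 were called. Il1a, Il1b and Il1rn reached an unadjusted limma p under 0.05 (0.024, 0.00052 and 0.0045), all with KO higher, as did 8.86% of all genes tested in that direction and 8.21% in the other. The same 3 had a mean at least 2 times as high in KO, against 4.14% of all genes tested. All 10 members entered a limma voom fit of recovered reads over the 14109 genes averaging at least 10 reads, which was added once the values were known. There the members' median log2 difference was 0.22, beside -0.08 over all genes, and 0 members passed, with the smallest adjusted p at 0.089 for Il1b. That fit called 4 genes higher (0.0284%) and 0 lower (0.0%).

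**Figure D1:**
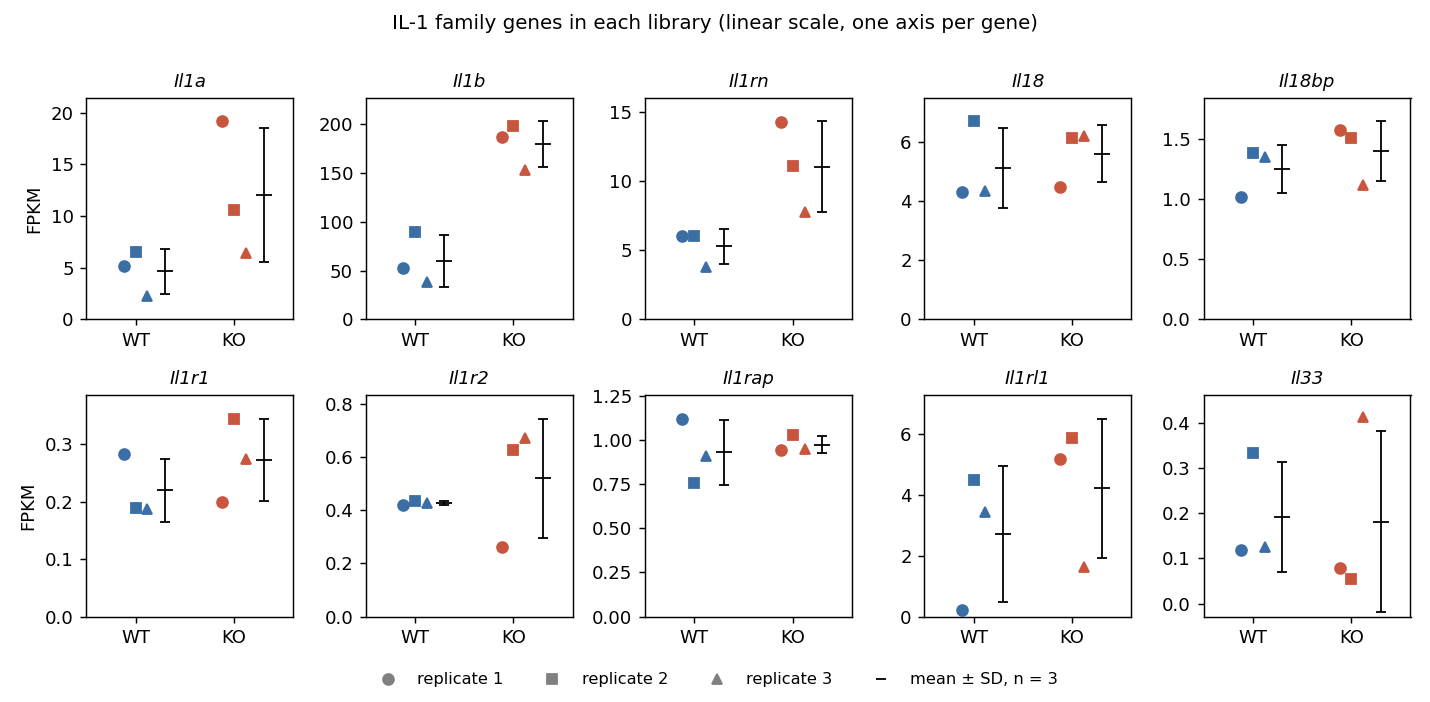
FPKM of each of the 10 genes (vertical axes, linear, one scale per gene) in the WT (blue) and KO (red) libraries, with symbols for replicate numbers and black bars for mean ± SD (n = 3). Il1b and Il1rn are the panels where every KO library lies above every WT library, and Il1rl1 shows WT replicate 1 at 0.218 FPKM, far below the rest.

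The core macrophage score moved with these 3 genes across libraries. Il1b minus the score, both on log2(FPKM + 1), was -0.38, -0.49 and -0.36 in the WT libraries and -0.73, 0.04 and -0.03 in the KO libraries. KO replicate 1, with the highest score, had the lowest value of all 6 libraries, while KO replicates 2 and 3 lay above every WT library. The group means of this quantity were -0.41 ± 0.07 and -0.24 ± 0.43 (SD, n = 3), a difference of 0.17. For Il1a the same difference was -0.30 and for Il1rn -0.55, each with overlapping groups. With the score as a covariate in limma, the Il1b difference was 0.67 (SE 0.27, adjusted p = 0.42), that of Il1rn 0.18 (adjusted p = 0.78) and that of Il1a -0.36 (adjusted p = 0.64). The small or variable differences of Il18 (-0.055), Il18bp (-0.083) and Il1rl1 (-0.34) also turned negative in that fit. That fit called 0 of 10732 genes (0.0%), and the covariate itself differed by 1.47 between the groups.

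Markers of neutrophils and monocytes, which also make IL-1β, were read beside Il1b. Of 12 neutrophil markers 8 were in the tables, and these summed to 8.31 to 27.2 FPKM in WT and 35.4 to 56.7 FPKM in KO. Csf3r, the receptor of the growth factor G-CSF, ranged from 5.29 to 13.48 FPKM in WT and from 21.3 to 35.16 FPKM in KO. S100a8, a calcium-binding protein of neutrophils and monocytes, ranged from 0.733 to 7.58 and from 7.83 to 8.44 FPKM, and Mmp8, a neutrophil collagenase, from 1.85 to 5.30 and from 5.75 to 12.3 FPKM. These 3 genes, the only ones of the list in the test, had KO above WT without overlap, as did 9.75% of all genes tested. Of the 3, limma called none (adjusted p from 0.11 to 0.25). The other 5 peaked below 1 FPKM, S100a9 at 0.0516, Cxcr2 at 0.026, Elane at 0.0306, Camp at 0.827 and Retnlg at 0.578 FPKM. By group mean S100a9, Cxcr2 and Retnlg were lower in KO, and Elane and Camp higher. Cxcr2 held 1, 3 and 1 reads in WT and 0, 0 and 0 reads in KO. The 8 monocyte markers summed to 339 to 356 FPKM in WT and 384 to 489 FPKM in KO. Their part in the Il1b difference was not tested.

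The balance of antagonist to ligand was compared as a log2 ratio within each library. Il1b was 8.81, 14.8 and 9.94 times as high as Il1rn in the WT libraries and 13.1, 17.9 and 19.8 times as high in the KO libraries. WT replicate 2 lay among the KO values, so the groups overlapped. The log2 ratio of Il1rn to Il1b averaged -3.45 ± 0.39 (WT) and -4.06 ± 0.31 (KO; SD, n = 3; exact two-sided permutation p = 0.2, adjusted p = 0.6 over 3 ratios, where 3 against 3 allows no p below 0.1). The ratio of Il18bp to Il18 was -2.01 ± 0.30 and -2.00 ± 0.48, and that of the decoy Il1r2 to the signalling receptor Il1r1 was 0.99 ± 0.36 and 0.85 ± 0.45 (exact two-sided permutation p = 1 and 0.7, adjusted p = 1 for both). In FPKM, which divides by transcript length, Il1r2 was higher than Il1r1 in all 6 libraries, although both were low. The reads did not show this order. Il1r1 held 63, 43 and 40 reads in WT and 47, 79 and 60 in KO. Il1r2 held 41, 43 and 40 reads in WT and 27, 63 and 64 in KO.

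**Figure D2:**
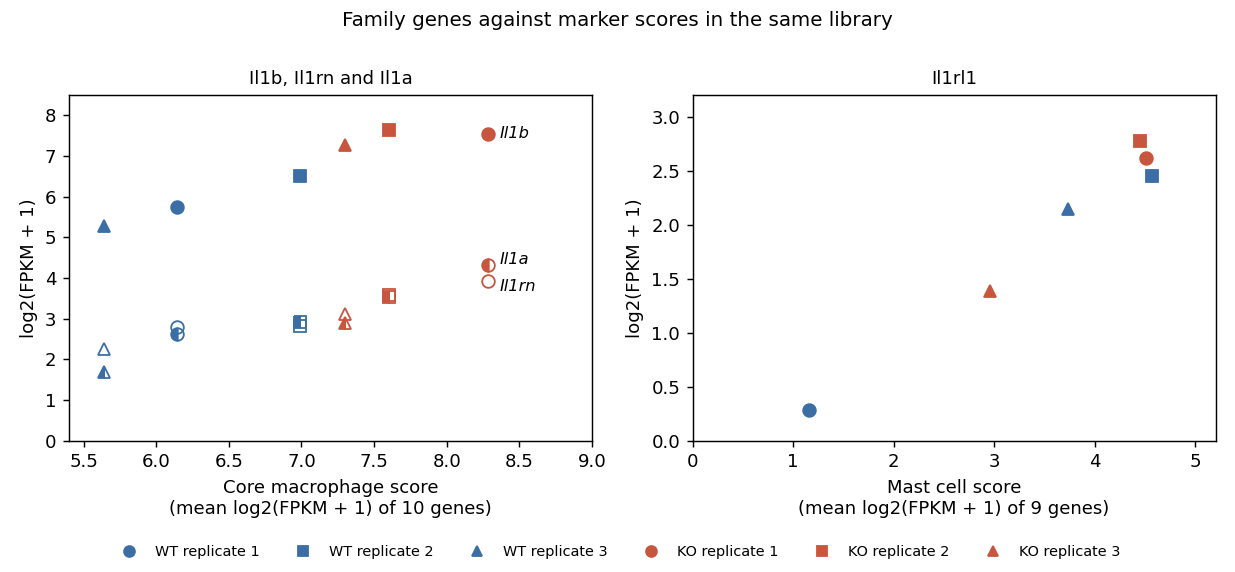
Left, log2(FPKM + 1) of Il1b (filled), Il1rn (open) and Il1a (part-filled) against the core macrophage score, the mean log2(FPKM + 1) of 10 genes. Right, log2(FPKM + 1) of Il1rl1 against the mast cell score over 9 genes, where WT replicate 1 lies lowest on both axes (mast cell score 1.16). Each symbol is 1 library, with WT in blue and KO in red.

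Il18, the other cytokine cut by caspase-1, did not follow Il1b. Its level was 4.32, 6.69 and 4.34 FPKM in the WT libraries and 4.48, 6.12 and 6.18 FPKM in the KO libraries. The highest value belonged to WT replicate 2, and KO replicate 1 sat with the lower WT libraries. The log2 difference was 0.12 (SE 0.18, limma adjusted p = 0.75). The gene spans chr9:50554827-50581840 (plus strand) and overlaps Bco2 and Tex12 without shared exons.

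Il18bp, the soluble inhibitor of IL-18, ranged from 1.02 to 1.39 FPKM in WT and from 1.117 to 1.58 FPKM in KO, on 171 to 279 reads. The log2 difference was 0.09 (SE 0.13, limma adjusted p = 0.74). Its exons, within chr7:102014885-102018690 (minus strand), overlap those of Numa1, a mitotic apparatus gene on the opposite strand at 41.8 to 53.8 FPKM. Without a stated strand setting, reads of the overlap cannot be assigned, so the level of Il18bp is uncertain.

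The receptor chains for IL-18 were measured from a list of the remaining family members, of which 7 of 15 symbols were in the tables and 3 passed the filter. Il18r1, the ligand-binding chain, stood at 2.60, 3.56 and 4.04 FPKM in WT and 1.97, 2.51 and 2.48 FPKM in KO. Il18rap, its signalling partner, stood at 1.83, 1.85 and 2.62 FPKM in WT and 0.897, 1.33 and 1.65 FPKM in KO. Both chains had KO below WT without overlap, by -0.40 (SE 0.15) and -0.44 (SE 0.16) on the log2 scale, a position held by 15.2% of all genes tested, and neither passed (limma adjusted p = 0.24 for each). The T and NK cell markers, cells known to carry this receptor, summed to 167 to 196 FPKM in WT and 131 to 153 FPKM in KO over 11 genes, also without overlap, and their part in these values was not tested. With the core macrophage score as a covariate the Il18r1 difference was -0.22 and that of Il18rap 0.03. Sigirr, an inhibitory receptor of the family, averaged 26.4 ± 3.98 (WT) and 21.3 ± 1.85 FPKM (KO) (SD, n = 3; log2 difference -0.29, limma adjusted p = 0.29), with overlapping groups.

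Il1rl1, which encodes the IL-33 receptor ST2, varied more between libraries than any other member. It stood at 0.218, 4.48 and 3.42 FPKM in the WT libraries and at 5.15, 5.86 and 1.61 FPKM in the KO libraries. WT replicate 1 held 59 reads, and the other libraries held 427 to 1639. The highest library was 26.9 times the lowest, against 5.24 times for Il1b. The groups overlapped, with means of 2.71 ± 2.22 (WT) and 4.21 ± 2.28 FPKM (KO; SD, n = 3), and the log2 difference of 0.63 (SE 0.60) had a limma adjusted p of 0.62. Without WT replicate 1 that difference was -0.04, and without KO replicate 3 it was 1.07.

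Mast cell genes, read from a list of 10 of which 9 were in the tables, had their lowest values in the same library. Mast cells reside in the peritoneal cavity and are known for high ST2. The 9 genes summed to 13.3, 570 and 259 FPKM in WT replicates 1 to 3 and to 480, 481 and 114 FPKM in KO replicates 1 to 3. As for Il1rl1, WT replicate 1 was the lowest, KO replicate 3 the next and WT replicate 3 the one after. Cma1, a mast cell chymase, stood at 2.25, 162 and 84.45 FPKM in WT and 144, 134 and 31.9 FPKM in KO. Gata2, a transcription factor of mast cells, stood at 0.0739, 4.34 and 2.03 FPKM in WT and 3.90, 3.59 and 1.03 FPKM in KO. Il1rl1 minus the mast cell score was -0.87 in WT replicate 1 and between -2.11 and -1.57 in the other 5 libraries. Both terms are on log2(FPKM + 1), and the added 1 weighs most in WT replicate 1, where Il1rl1 stood at 0.218 FPKM. That value is therefore not read as an excess of Il1rl1 over mast cell genes. Markers of type 2 lymphoid cells and eosinophils, which also use ST2, summed to 12.6 to 19.8 FPKM over 9 genes, most of it from Il7r, and Il5 and Il13 reached at most 0.147 and 0.515 FPKM. The part of these cells in the level of Il1rl1 was not tested. The gene spans chr1:40429570-40465415 (plus strand), clear of other genes. Gene-level values do not separate its membrane and soluble forms.

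Il33 was barely detected. The libraries held 13, 37 and 13 reads in WT and 9, 6 and 44 reads in KO (0.120, 0.334 and 0.125 FPKM, then 0.0784, 0.0535 and 0.414 FPKM). WT replicate 2 and KO replicate 3 were the high libraries, 1 from each group. Their exact Poisson 95% intervals, 26.1 to 51.0 and 32.0 to 59.1 reads, lay above those of the other libraries, whose upper bounds ran from 13.1 to 22.2 reads, and such intervals cover counting error only. Group means were 0.193 ± 0.122 and 0.182 ± 0.201 FPKM (SD, n = 3; exact two-sided permutation p = 1). The 10 fibroblast and mesothelial markers, cell types that store IL-33 in the nucleus, summed to 21.9 FPKM in WT replicate 2 and 35.4 FPKM in KO replicate 3 and to 0.998 to 11.99 FPKM in the other libraries, and their part was not tested. The Il33 gene spans chr19:29925114-29960718 (plus strand), clear of other genes.

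**Figure D3:**
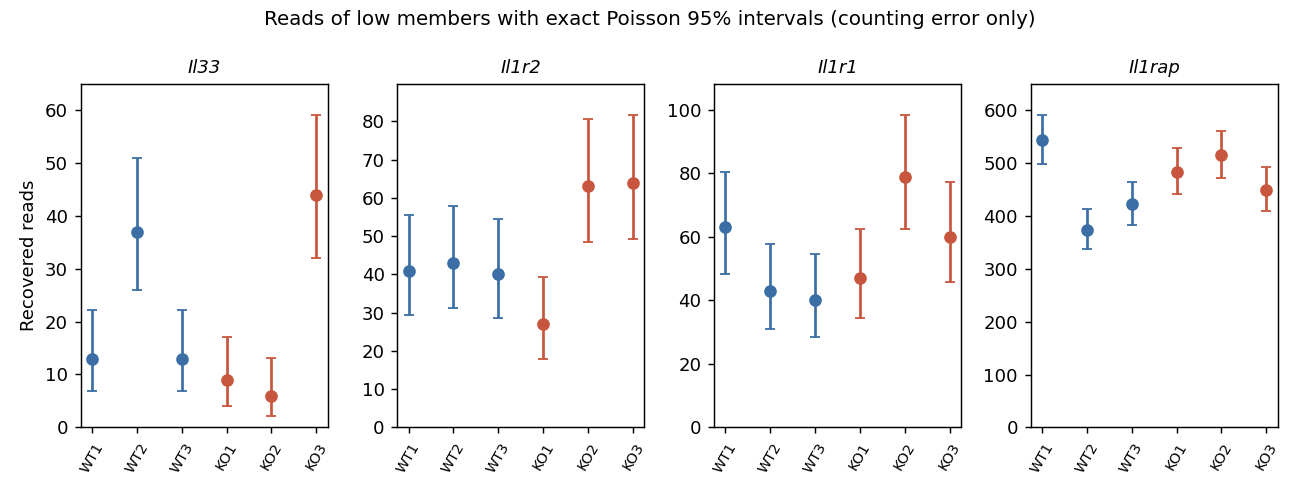
Recovered reads (vertical axes) of the 4 members below a mean of 1 FPKM in each library, with bars for exact Poisson 95% intervals. Il33 is high in WT replicate 2 (37 reads) and KO replicate 3 (44 reads), and for all 4 genes the WT (blue) and KO (red) libraries overlap.

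The IL-1 receptor chains were near or below 1 FPKM. Il1r1, the signalling receptor, ranged from 0.187 to 0.283 FPKM in WT and from 0.200 to 0.343 FPKM in KO, on 40 to 79 reads (exact two-sided permutation p = 0.3, n = 3). Il1r2, the decoy, stood at 0.421, 0.434 and 0.429 FPKM in WT and at 0.263, 0.628 and 0.672 FPKM in KO, and the KO libraries lay on both sides of the narrow WT range (exact two-sided permutation p = 0.4, n = 3). Il1rap, the chain shared by the receptors of IL-1 and IL-33, lay just under the filter with a mean of 0.952 FPKM. It ranged from 0.757 to 1.122 FPKM in WT and from 0.945 to 1.03 FPKM in KO (exact two-sided permutation p = 0.7, n = 3). On the voom scale of log2 reads scaled to depth, the KO minus WT differences were 0.29 (SE 0.34) for Il1r1, 0.15 (SE 0.42) for Il1r2 and 0.08 (SE 0.16) for Il1rap, each smaller than its SE. Il1r2 (chr1:40074079-40125231) and Il1r1 (chr1:40225080-40317257) are plus-strand neighbours of Il1rl1, and Il1rap spans chr16:26581704-26730117 (plus strand), where an antisense gene shares exon sequence with it.

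Genes that process and release IL-1 did not move as a block. The list of 25 was all in the tables, 22 passed the filter, 14 were higher in KO and 8 lower, with 6 above WT without overlap, 0 below and 0 called, where 9.75% of all genes tested lay above and 15.2% below. Its median log2 difference was 0.07, beside -0.06 over all genes tested. Nlrp3, the inflammasome sensor that is itself induced together with Il1b, stood at 3.40, 5.21 and 2.02 FPKM in WT and 10.99, 10.5 and 8.39 FPKM in KO (log2 difference 1.32, SE 0.25, limma adjusted p = 0.11). P2rx7, the ATP-gated channel that triggers NLRP3, averaged 3.59 ± 0.50 (WT) and 6.53 ± 1.22 FPKM (KO), and Naip2, a sensor of bacterial secretion systems, 13.4 ± 1.58 and 20.3 ± 1.18 FPKM (SD, n = 3; limma adjusted p = 0.11 for each). Each had groups that did not overlap. Casp1, the protease that cuts IL-1β and IL-18, averaged 42.9 ± 3.14 and 42.2 ± 2.50 FPKM, and Gsdmd, which encodes the pore through which mature IL-1β leaves the cell, 52.9 ± 4.60 and 53.6 ± 5.83 FPKM (limma adjusted p = 0.91 and 0.95); these 2 genes were picked out after their values were seen.

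The tested signalling genes below the receptors lay, in the median, close to equal between the groups. Peli2, the listed gene that the filter left out (mean 0.961 FPKM), was picked out after its values were seen. It stood at 0.485, 0.575 and 0.312 FPKM in WT and 1.44, 1.52 and 1.43 FPKM in KO, without overlap. Of 26 listed, 25 were tested, 8 higher and 17 lower in KO, with 3 above and 2 below WT without overlap (all genes tested, 9.75% and 15.2%), 0 called, and a median log2 difference of -0.02. Irak3, a brake on the receptor-proximal kinases, averaged 18.3 ± 1.31 (WT) and 22.1 ± 2.03 FPKM (KO), and Mapkapk2, a p38 target kinase that stabilises cytokine mRNA, 52.3 ± 6.11 and 68.85 ± 12.1 FPKM (SD, n = 3; limma adjusted p = 0.24 for both). Tollip, an adaptor that restrains IRAK1, had a log2 difference of 0.11 (limma adjusted p = 0.53). Tab1, an activator of the kinase TAK1, and Ikbkb, which encodes the IκB kinase IKKβ, had KO below WT by -0.26 and -0.18 (limma adjusted p = 0.25 and 0.41). With the core macrophage score as a covariate Mapkapk2 (-0.086), Irak3 (-0.0044) and Ikbkb (0.065) changed sign. Myd88, the adaptor of all these receptors, ranged from 38.6 to 50.0 FPKM over the 6 libraries.

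Of 25 known targets of IL-1 and NF-kB, all were in the tables and 17 were tested, 14 of them higher in KO and 3 lower, with 5 above WT without overlap and 0 called. Of all 10732 genes tested, 3796 were higher in KO and 9.75% were above WT without overlap. The median log2 difference was 0.41. Cxcl2, a neutrophil chemoattractant, stood at 52.3, 102.5 and 30.9 FPKM in WT and 218, 165 and 129 FPKM in KO (log2 difference 1.58, SE 0.40, limma adjusted p = 0.13). Ptgs2, the inducible cyclooxygenase, averaged 3.98 ± 2.44 and 11.7 ± 3.13 FPKM, and Sod2, mitochondrial superoxide dismutase, 21.6 ± 5.98 and 49.4 ± 16.1 FPKM (SD, n = 3; limma adjusted p = 0.16 and 0.12). Nfkbia, the feedback inhibitor of NF-kB, averaged 83.1 ± 8.53 and 91.4 ± 5.75 FPKM (limma adjusted p = 0.52). The chemokine genes Cxcl1 and Cxcl3, also above WT without overlap, had log2 differences of 1.36 and 1.22 (limma adjusted p = 0.19 and 0.34). Groups overlapped for 12 of the 17, Nfkbia among them. Of these, Tnf averaged 3.94 FPKM in WT and 3.96 in KO, Icam1 34.2 and 35.0, and Nfkbiz 10.4 and 10.3. Ptges, also with overlapping groups, averaged 6.48 and 18.2 FPKM. Nfkbia, Cxcl1, Cxcl3, Tnf, Icam1, Nfkbiz and Ptges were picked out after their values were seen.

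Among 11 transcription factors known to act at Il1b, 6 were higher in KO and 5 lower, with 5 above WT and 1 below it without overlap (all genes tested, 9.75% and 15.2%), 0 called and a median log2 difference of 0.43. Cebpa, a myeloid C/EBP factor, averaged 7.195 ± 3.803 (WT) and 24.05 ± 8.36 FPKM (KO), Fos, an AP-1 subunit, 21.0 ± 8.33 and 52.3 ± 11.4 FPKM, and Hif1a, the oxygen-sensing factor that induces Il1b, 43.6 ± 7.42 and 69.5 ± 2.43 FPKM (SD, n = 3; limma adjusted p = 0.11 for each). Irf8, a factor shared by B cells and macrophages, averaged 145 ± 3.34 and 127 ± 3.50 FPKM (limma adjusted p = 0.26). Leaving out WT replicate 2 brought 8 of the named genes of the 4 pathway lists past the limma threshold: Naip2, Nlrp3, P2rx7, Sod2, Cxcl2, Hif1a, Fos and Cebpa. That fit called 4.79% of all genes higher and 0.354% lower, and the genes had been named for their large limma statistics, so nothing is read from the count. The core macrophage score was higher in KO by 1.47, without overlap, and its part in these genes was not tested beyond the covariate fit. There the log2 difference of Nlrp3 was 0.45, of P2rx7 0.30, of Naip2 0.37, of Cxcl2 0.02, of Sod2 0.14 and of Ptgs2 0.77. That of Fos was 0.34, of Cebpa 0.30, of Hif1a 0.77 and of Irf8 -0.17, and none of these genes was called.

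**Figure D4:**
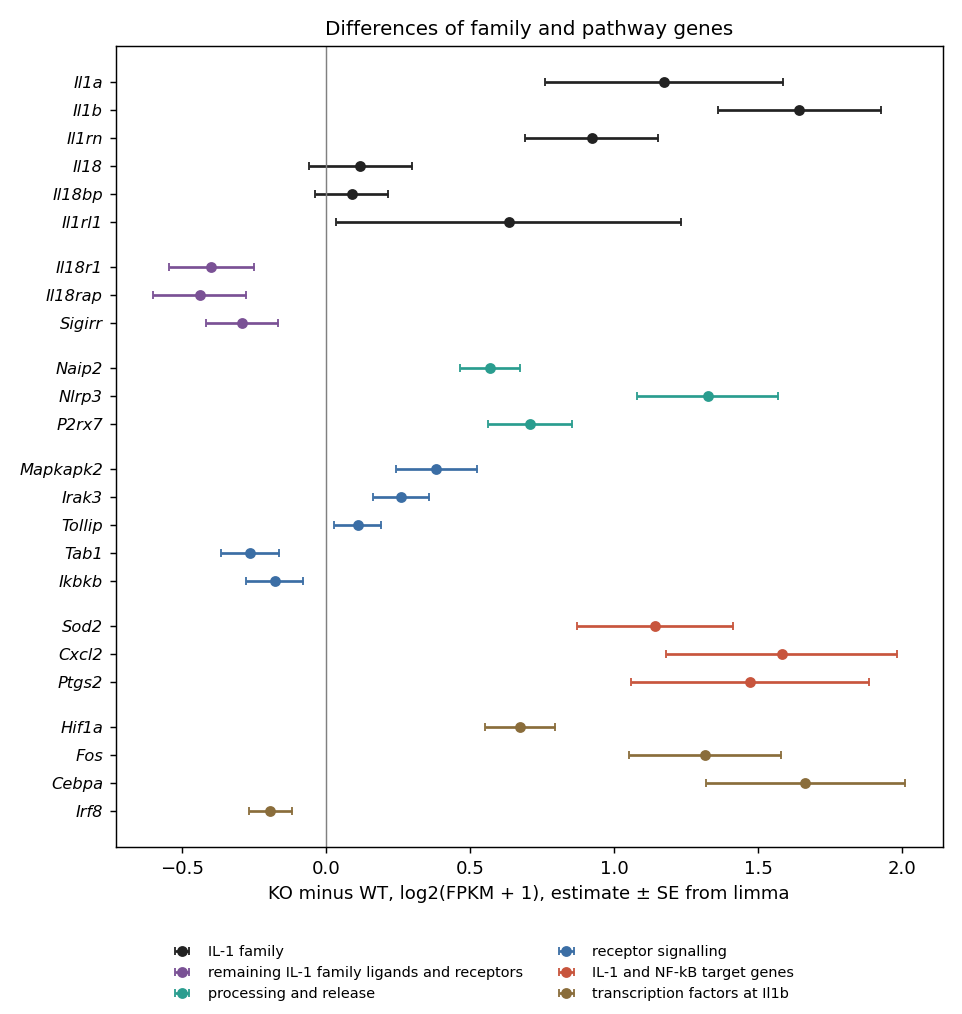
KO minus WT on log2(FPKM + 1) with SE from limma (horizontal axis) for the tested family members and the named genes of each pathway list, by colour. Il1b (1.64), Il1a (1.17) and Il1rn (0.92) lie right of 0, Il18 and Il18bp near 0, and Il18r1, Il18rap and Sigirr left of it.

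The genes with the pattern most like each member were ranked by the mean absolute difference of log2(FPKM + 1) profiles, each centred on its own mean over the 6 libraries. The genes share these libraries and their cell content, and nothing is read from the likeness about function. For Il1b they were Cav1 (0.087), Ptgs1 (0.097) and Spint1 (0.11), where the median over tested genes was 0.86. Those nearest to Il1a were Srxn1, Oas1g and Rnf128 (0.090 to 0.12), and those nearest to Il1rn were Myof, Gas7 and Abcc1 (0.061 to 0.096). Il1rl1 was nearest to Mrgprb1 (0.12), which encodes a receptor of mast cells, and to Gata2 (0.16), against a median of 0.75. Mrgprb1 stood at 0.0921, 4.71 and 3.69 FPKM in WT and 4.34, 5.13 and 1.16 FPKM in KO, again lowest in WT replicate 1. Il18 was nearest to Tmem218, Gm15327 and Rasgrp4 (0.057 to 0.074), and Il18bp to Lactb2, Mrpl41 and Haus8 (0.029 to 0.036), both among many genes of flat profile with medians of 0.24 and 0.17.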

How the data were processed

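The authors deposited 1 table of FPKM per library, that is fragments scaled by transcript length and depth. The genome build is mm10, per the submitters' processing notes. Aligner, counter, annotation and strand setting: not given in the sources used here. Groups came from the sample titles. The 10732 genes averaging at least 1 FPKM were tested on log2(FPKM + 1) with limma 3.58.1 in R 4.3.3 (mean-variance trend, Benjamini-Hochberg over all genes, threshold 0.05), so folds of low genes are understated. Ratios and single genes below the filter were compared by exact permutation tests. Whole reads were recovered from the FPKM steps for 19328 of 19331 genes (99.98%, within 0.002 reads). Both steps were tested on simulated data.

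The members and lists were chosen with earlier results of these data known. The text names all members, every tested gene of the remaining family, up to 3 genes each way per pathway list (by the size of limma's moderated statistic among genes whose groups did not overlap) and the 3 nearest genes per tested member, of which 1 is not reported here. No 2 libraries agreed within sampling noise (mean chi-square per gene at least 15.6). Alternatives were pseudocounts of 0.1 and 5, no filter or 5 FPKM, 3 rescalings, voom, a replicate block, a macrophage covariate and leaving out each library. Gene positions are from GENCODE M21. Python 3.11.15, pandas 2.3.3, numpy 2.4.6, scipy 1.17.1 and matplotlib 3.10.9 were used.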

Additional observations from a re-analysis of the deposited data

How the results depend on the processing

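Over all genes, the 3 called higher in KO became 6 with a pseudocount of 5, 0 with no filter, 5 with voom and 0 with the macrophage covariate. Leaving out single libraries gave 0 to 514, at 514 without WT replicate 2, at 0 without WT replicate 1, and at 1 when KO replicate 1 or 2 was left out. The 0 called lower became 0 to 38, with 38 without WT replicate 2 and 1 without WT replicate 3. Leaving out libraries called 0 to 1 members, Il1b without WT replicate 2, and the other settings called 0. Il1b stayed positive from 0.67 to 1.97 over 17 alternatives (limma adjusted p from 0.0079 to 0.42), and Il1rn from 0.18 to 1.13. With the macrophage covariate Il1a (-0.359), Il18 (-0.055), Il18bp (-0.0827), Il1rl1 (-0.342), Il18rap (0.0298), Mapkapk2 (-0.086), Irak3 (-0.0044) and Ikbkb (0.065) changed sign, and the cause was not tested. Leaving out single libraries, Il1rl1 ran from -0.0372 (without WT replicate 1) to 1.07 (without KO replicate 3). The mean difference in FPKM then ran from 0.018 to 0.089 for Il1r1, from 0.017 to 0.22 for Il1r2, from -0.042 to 0.14 for Il1rap and from -0.13 to 0.060 for Il33. The log2 ratio differences ran from -0.83 to -0.46 for Il1rn to Il1b, from -0.23 to 0.25 for Il18bp to Il18 and from -0.36 to 0.090 for Il1r2 to Il1r1. Il33, Il1r1 and Il1r2 rest on 6 to 79 reads, and for Il33 the spread between libraries exceeded the counting error.

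With the replicate number as a block, 11 genes were called higher and 0 members were called (Il1b limma adjusted p = 0.067). The numbers share only a label: deviations of same-numbered libraries from their group means correlated at -0.21, -0.38 and 0.27 over tested genes, and libraries correlated best with their own number only for replicate 3.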
